A study of Mus musculus with 6 samples.

Results

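The genes described here encode the caveolins, the cavins and 2 further proteins of caveolae, the small flask-shaped pits of the plasma membrane. They were chosen by name, together with the statement that Cav2 was higher in the libraries labelled CKO. The 7 members are Cav1, Cav2, Cavin1, Cavin2, Cavin3, Ehd2 and Pacsin2, out of 15803 genes measured, and each had a row of its own under its current symbol. RNA-seq was performed on growth plate cartilage of mouse embryos at embryonic day 18.5 (E18.5), with 3 libraries labelled WT, from Hnrnpk fl/fl embryos, and 3 labelled CKO, from Col2a1-Cre;Hnrnpk fl/fl embryos. Both genotypes carry the loxP-flanked Hnrnpk alleles, and in CKO the Cre recombinase driven by Col2a1, a gene of the chondrocyte lineage, removes the sequence between the loxP sites. A cell of the dissected cartilage in which this Cre was never active keeps Hnrnpk. The paper states that perichondrium expressed Col2a1 too, and which cells lost Hnrnpk was not tested here.

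Caveolin 1 inserts into the inner leaflet of the plasma membrane as oligomers and binds cholesterol, and caveolin 2 forms mixed oligomers with it. The cavins are soluble coat proteins that assemble on caveolin-rich membrane, and of these cavin 1 is required for a caveola to form. EHD2 is an ATPase that sits at the caveolar neck and holds the pit at the cell surface, and PACSIN2 is an F-BAR protein that bends membrane. Caveolae are abundant in endothelium, adipocytes, muscle and fibroblasts, they flatten to release membrane under stretch, and chondrocytes carry them too.

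Cav2 and Cav1 lie side by side on chromosome 6 of GRCm38, both on the plus strand, Cav2 from 17281185 to 17289115 and Cav1 from 17306335 to 17341452. The gap between them is 17219 bases and holds no other protein-coding gene. To show the sequence in front of the members whose CKO libraries all lay above all WT libraries, the bases before the first annotated start of Cav1, Cav2, Cavin2 and Ehd2 are printed from RefSeq on GRCm38.p6, 5′ to 3′ on the gene's own strand. Windows of Cav1, Cav2 and Cavin2 hold 250 bases, and that of Ehd2 stops at 218 bases because another annotation, GENCODE, starts the transcript earlier, while distances are counted from the RefSeq start. Capitals mark matches to the motifs searched, and the bases printed for Cavin2 hold none.
Cav1, chr6:17306085-17306334, plus strand: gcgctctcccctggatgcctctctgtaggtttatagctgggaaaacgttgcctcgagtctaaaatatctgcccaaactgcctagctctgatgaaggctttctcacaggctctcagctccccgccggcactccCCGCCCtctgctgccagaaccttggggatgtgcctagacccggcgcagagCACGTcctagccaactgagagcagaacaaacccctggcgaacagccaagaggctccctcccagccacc
Cav2, chr6:17280935-17281184, plus strand: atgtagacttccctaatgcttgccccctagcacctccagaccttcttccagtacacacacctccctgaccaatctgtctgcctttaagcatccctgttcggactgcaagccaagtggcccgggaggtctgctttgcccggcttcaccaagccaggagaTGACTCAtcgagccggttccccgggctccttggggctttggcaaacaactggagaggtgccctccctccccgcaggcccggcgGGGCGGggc
Cavin2, chr1:51288876-51289125, plus strand: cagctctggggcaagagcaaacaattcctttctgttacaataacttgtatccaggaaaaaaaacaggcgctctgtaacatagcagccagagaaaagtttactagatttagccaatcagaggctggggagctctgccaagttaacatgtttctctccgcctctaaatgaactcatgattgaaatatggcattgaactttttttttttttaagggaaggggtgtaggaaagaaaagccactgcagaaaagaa
Ehd2, chr7:15967568-15967785, minus strand: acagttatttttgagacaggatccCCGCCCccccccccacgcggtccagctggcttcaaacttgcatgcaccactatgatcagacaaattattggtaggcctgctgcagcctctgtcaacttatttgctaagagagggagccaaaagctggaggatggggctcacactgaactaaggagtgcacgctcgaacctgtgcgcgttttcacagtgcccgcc

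The motifs were searched on both strands of the 250 bases before each start. They were the GC box GGGCGG, the hypoxia response core ACGTG, the AP-1 site TGANTCA, the TEAD site GGAATG and the CArG box. No match of one motif overlapped a match of another in these windows. A GC box stood 118 bases before the start of Cav1, 9 before that of Cav2 and 226 before that of Ehd2, and 32.7% of 32851 promoter windows of mouse genes hold one. Cav1 also held the letters of a hypoxia response core 68 bases before its start, which 16.6% of all windows do, and Cav2 an AP-1 site 92 bases before its start, which 6.75% do. The window of Cavin2 held none of the motifs and was poor in G and C, at 40.4% with 2 CpG dinucleotides, against 52.4% and 6 at the median window. A promoter window was found for 6 of the 7 members. Of those not printed, Cavin1 had a GC box and a TEAD site, the latter in 12.6% of all windows. By GENCODE, which starts Cavin1 earlier, these bases lie within the gene. The first start of Pacsin2 had a GC box and its second start an AP-1 site. The CArG box, present in 1.47% of all windows, was found before no member. Such matches describe letters only.

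The libraries held between 1153871 and 1454094 reads on the listed genes, so that 1 read was worth 0.688 to 0.867 CPM, reads scaled to a library total of 1000000. At this depth the members had between 12 and 410 reads in a library, all above the floor of 3 reads. Some libraries stood apart. The rank correlation across genes was 0.955 between WT 1 and WT 2 but 0.914 to 0.915 between these and WT 3. It was 0.958 between CKO 1 and CKO 3 but 0.889 to 0.890 between these and CKO 2. Hnrnpk, counted over the whole gene, measured 842 (WT 1), 955 (WT 2) and 944 CPM (WT 3), and 759 (CKO 1), 949.9 (CKO 2) and 780.0 CPM (CKO 3). The genotypes overlapped (log2 fold change -0.14, standard error 0.15, adjusted p = 0.622 by limma), so the libraries are called by their labels. The chondrocyte label was checked with 10 cartilage genes, whose summed level was 24215 to 29457 CPM in WT and 5473 to 5544 CPM in CKO. Of these 10 genes, 0 had a log2 fold change above 0. At an adjusted p under 0.05 by limma, 8 were lower in CKO, against 2.6% of all genes tested.

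To ask how the caveolar genes differed between genotypes, log2(CPM + 1) was compared with limma over 12155 genes whose mean reached 1 CPM, and p-values were adjusted over all of them. All 7 members passed this filter on low values. The caveolins and Ehd2 were higher in every CKO library than in any WT library, as was Cavin2, whereas Cavin1, Cavin3 and Pacsin2 overlapped. Past an adjusted p of 0.05, 2 of the 7 members were higher in CKO and 0 were lower, against 3.18% and 2.6% of all genes tested. The 2 are Cav1 and Cav2, and since the rise of Cav2 belongs to the rule that chose the members, nothing is read from this count or from those that follow. At an unadjusted p under 0.05 limma had 4 members higher, Cav2 among them, and 0 lower, against 11.2% and 10.1% of all genes. edgeR and DESeq2 also had 0 lower at the adjusted threshold. The 4 members without overlap compare with 14.5% of all genes whose CKO libraries all lay above all WT libraries. The median log2 fold change was 0.73 over the members and 0.013 over all genes. Without Cav2, the counts over the other 6 members were 1 at the adjusted threshold, 3 at the unadjusted p and 3 without overlap, and their median was 0.51. These counts and medians come from the contrast that chose the members and are descriptions. By the study's criterion, a log2 fold change above 1 with an unadjusted p under 0.05, Cavin2 alone of the members was higher, against 5.3% of all genes, and 0 members were lower, against 5.1%. In bulk cartilage, more cells of a type and more RNA per cell cannot be told apart.

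**Figure D1:**
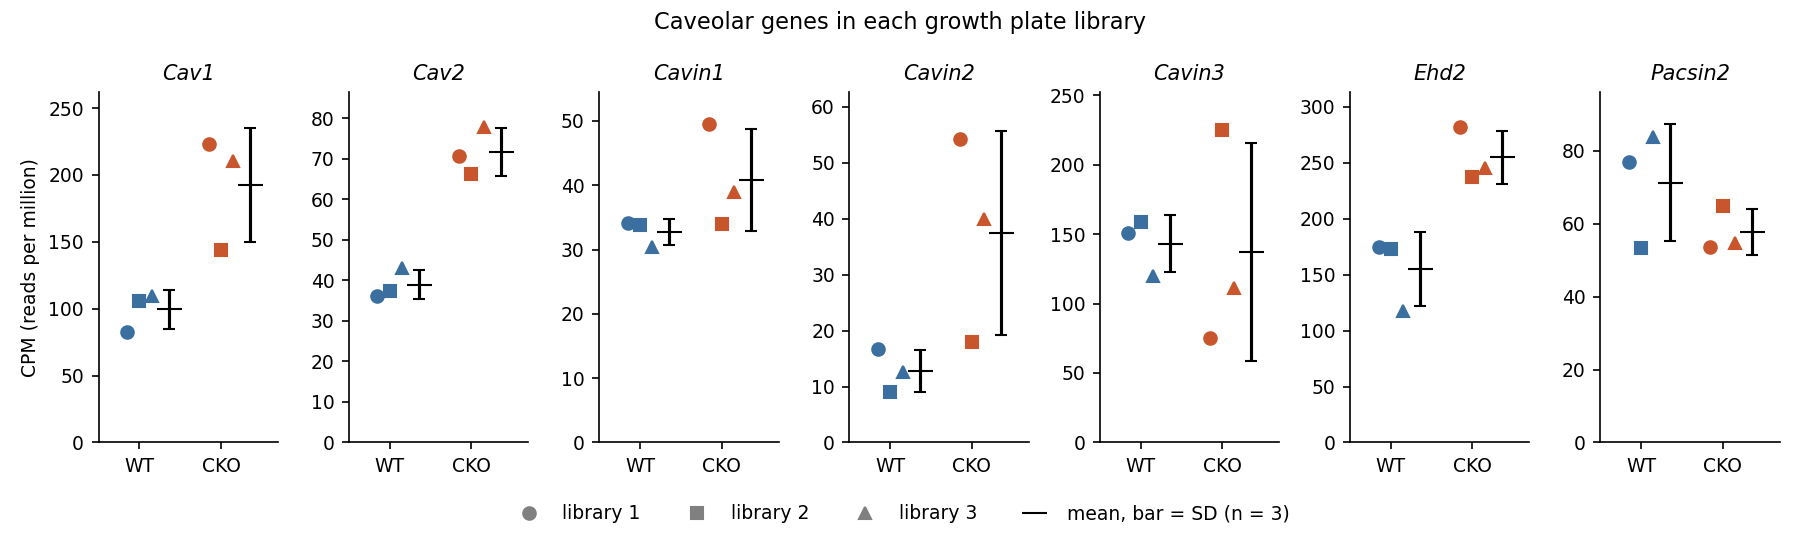
CPM of the 7 members in each library, 1 panel per gene with its own axis from 0. Circles, squares and triangles are libraries 1, 2 and 3, and the bar beside each genotype is the mean ± SD (n = 3). The CKO libraries of Cav1, Cav2, Cavin2 and Ehd2 all lie above the WT libraries, and CKO 2 is the lowest of the 3 for each of these genes and the highest for Cavin3, at 225 CPM.

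Cav1 (ENSMUSG00000007655) encodes the caveolin that caveolae cannot form without outside muscle. Its level measured 82.6 (WT 1), 105.8 (WT 2) and 109.8 CPM (WT 3), and 222.8 (CKO 1), 143.6 (CKO 2) and 210.6 CPM (CKO 3). The genotypes were separated by 33.8 CPM, with CKO 2 the nearest to WT. Cav1 rose from 99.4 ± 14.7 CPM in WT to 192 ± 42.6 CPM in CKO (SD, n = 3). The log2 fold change, 0.93 with a standard error of 0.21, had an adjusted p of 0.0299 by limma. edgeR's quasi-likelihood test on the reads gave 0.91 (adjusted p = 0.0283) and DESeq2 0.93 (adjusted p = 0.0086). The call depended on single libraries. It was lost without WT 1 (log2 fold change 0.80, adjusted p = 0.135 by limma), WT 2 (0.98, adjusted p = 0.0984), CKO 1 (0.81, adjusted p = 0.126) or CKO 3 (0.85, adjusted p = 0.131). Each of these omissions also left fewer of all genes called higher, 123 to 137 against 387 with all libraries. Without CKO 2, which stood apart, the log2 fold change of Cav1 was 1.13 (adjusted p = 0.00255 by limma), and without WT 3 it was 1.01 (adjusted p = 0.0431).

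Cav2 (ENSMUSG00000000058) encodes the partner caveolin, which leaves the Golgi efficiently only together with caveolin 1. Because its rise was part of the choice, its values are given as a description. It measured 36.2 (WT 1), 37.5 (WT 2) and 43.1 CPM (WT 3), and 70.8 (CKO 1), 66.4 (CKO 2) and 78.0 CPM (CKO 3). Libraries of each genotype lay close together. The WT mean was 38.9 ± 3.64 CPM and the CKO mean 71.7 ± 5.85 CPM (SD, n = 3), with a gap of 23.3 CPM between the genotypes. The mean in CKO was 1.84 times that in WT, beside 1.93 times for Cav1. The log2 fold change was 0.87, its standard error was 0.19, and leaving out 1 library at a time gave 0.80 to 0.94. By this value Cav2 took the place 1092 and Cav1 the place 941 among the 12155 genes, counted from the largest increase.

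Within a library the levels of the caveolins can be compared per length of exon, as CPM per kb. Cav1 was 2.21 to 2.73 times as abundant as Cav2 in WT and 2.09 to 3.05 times in CKO. These ranges overlapped, and CKO 2 had the lowest ratio and CKO 1 the highest. Summed per kb, the caveolins were at 34.9 to 44.8 in WT and 61.6 to 85.9 in CKO.

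None of the genes tested beside the caveolins was called. Of the 4 nearest protein-coding genes, 2 on each side, limma tested 3 and called 0 in either direction, with 1, Met, at an unadjusted p under 0.05. edgeR and DESeq2 each gave an adjusted p to 1, Capza2, and did not call it. Tes, which encodes a LIM protein of focal adhesions and lies 175356 bases before Cav2, had 1 to 5 reads in WT and 5 to 10 in CKO (log2 fold change 1.11, standard error 0.51, adjusted p = 0.244 by limma). Met, the receptor of hepatocyte growth factor, lies 122347 bases after Cav1 and had 3 to 4 reads in WT and 8 to 14 in CKO. Its genotypes did not overlap (log2 fold change 1.17, standard error 0.39, adjusted p = 0.111 by limma). Capza2, which encodes an actin capping subunit, had 282 to 296 CPM in the WT and 305 to 342 CPM in the CKO libraries (log2 fold change 0.18, adjusted p = 0.493 by limma). Tfec had 1 read over the 6 libraries together and was below the filter.

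The cavins differed among themselves. Their sum was 163 to 201 CPM in WT and 179 to 277 CPM in CKO. Cavin1 (ENSMUSG00000004044, chromosome 11, 100956733 to 100970887, minus strand) encodes the core coat protein. It measured 34.1 (WT 1), 33.8 (WT 2) and 30.4 CPM (WT 3), and 49.5 (CKO 1), 33.9 (CKO 2) and 39.0 CPM (CKO 3). CKO 2 lay within the WT range, and the log2 fold change was 0.29 with a 95% interval of -0.20 to 0.79 (standard error 0.22, adjusted p = 0.489 by limma). The interval leaves room for a rise as large as that of Ehd2. Per kb, Cavin1 was 0.266 to 0.396 of Cav1 in WT and 0.178 to 0.227 of Cav1 in CKO, without overlap. Pacsin2 too was lower relative to Cav1, 0.353 to 0.652 in WT and 0.169 to 0.317 in CKO. The ratios of Cavin2 and Ehd2 to Cav1 overlapped. Differences of these ratios were not tested, as they rest on the contrast that chose the members.

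Cavin2 (ENSMUSG00000045954, chromosome 1, 51289126 to 51302960, plus strand) encodes a phosphatidylserine-binding cavin. It had the largest log2 fold change of the members, 1.39 (standard error 0.40), without passing the threshold (adjusted p = 0.0705 by limma). Its level measured 16.7 (WT 1), 9.01 (WT 2) and 12.7 CPM (WT 3), and 54.3 (CKO 1), 18.0 (CKO 2) and 39.9 CPM (CKO 3). CKO 2 lay only 1.37 CPM above WT 1, while CKO 1 and CKO 3 lay far above. These values came from 50 reads in all WT libraries and 150 in all CKO libraries. DESeq2 called the gene (adjusted p = 0.0288), edgeR did not (adjusted p = 0.0595), and without CKO 2 limma called it at 1.83 (adjusted p = 0.00463). Per kb, Cavin2 was at 0.313 to 0.575 of Cavin1 in WT and at 0.625 to 1.29 of Cavin1 in CKO.

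Cavin3 (ENSMUSG00000037060, chromosome 7, 105480083 to 105482300, minus strand) encodes the cavin named for binding protein kinase C delta. It measured 151 (WT 1), 158 (WT 2) and 120.0 CPM (WT 3), and 75.0 (CKO 1), 225 (CKO 2) and 111 CPM (CKO 3). CKO 2 was the highest of all libraries and CKO 1 the lowest. The log2 fold change, -0.20 with a standard error of 0.33, had an adjusted p of 0.774 by limma. Without CKO 2 it was -0.63 (adjusted p = 0.0739 by limma), and without CKO 1 it turned to 0.15 (adjusted p = 0.843 by limma). An unnamed transcript annotated on the opposite strand overlaps up to 374 bases of a Cavin3 exon. The kit marks strand, but the counting setting is not given in the sources used here. No other member overlapped another gene's exons or had a copy with at least 90% identity over 300 bases.

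Ehd2 (ENSMUSG00000074364, chromosome 7, 15946958 to 15967567, minus strand) measured 175 (WT 1), 173 (WT 2) and 117 CPM (WT 3), and 282 (CKO 1), 237 (CKO 2) and 245 CPM (CKO 3). Every CKO library lay at least 62.8 CPM above every WT library. The log2 fold change was 0.73 (standard error 0.19), which just missed the threshold (adjusted p = 0.0508 by limma). It passed without CKO 2 (0.78, adjusted p = 0.0265 by limma) and with no filter on low values (adjusted p = 0.0485), and it was 0.54 without WT 3, the lowest WT library (adjusted p = 0.0921). Pacsin2 (ENSMUSG00000016664, chromosome 15, 83375607 to 83464606, minus strand) measured 76.8 (WT 1), 53.3 (WT 2) and 83.6 CPM (WT 3), and 53.6 (CKO 1), 65.0 (CKO 2) and 54.6 CPM (CKO 3). The libraries overlapped, with WT 2 below every CKO library. The log2 fold change was -0.28 with a 95% interval of -0.76 to 0.20 (standard error 0.22, adjusted p = 0.506 by limma).

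**Figure D2:**
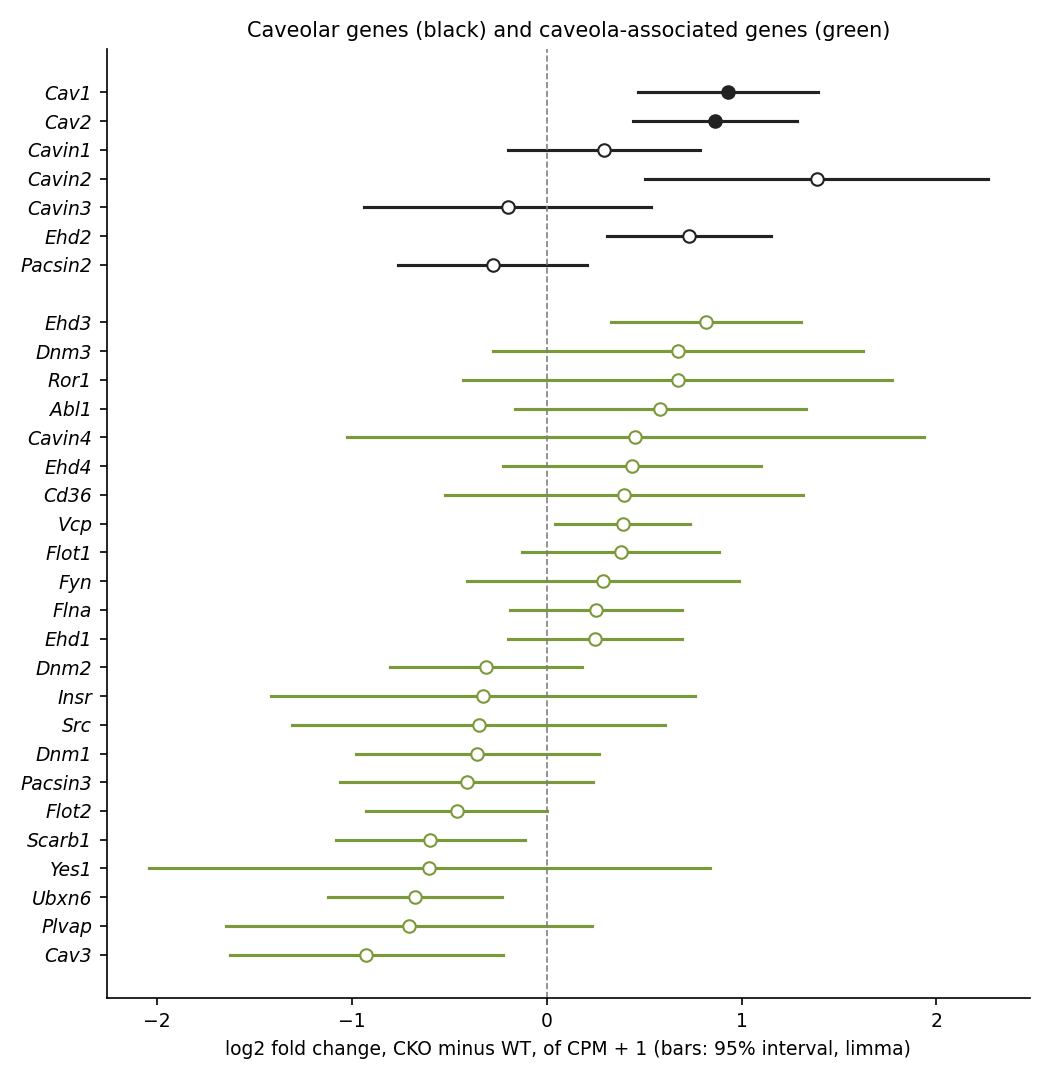
log2 fold change, CKO minus WT, of CPM + 1 with its 95% interval from limma, for the members (black) and the caveola-associated genes tested (green, sorted). Filled points passed an adjusted p of 0.05 over all genes, and only Cav1 and Cav2 are filled, the latter as a description. The intervals of Cavin2 and Ehd2 also lie above 0.

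Levels of the members differed widely per length. In WT, Cavin3 was the most abundant at 86.1 ± 12.2 CPM per kb (SD, n = 3), and its libraries lay above those of every other member. Ehd2 (30.3 ± 6.38) and Cav1 (28.9 ± 4.26) followed and overlapped. Pacsin2 (14.5 ± 3.25) and Cav2 (11.7 ± 1.09) overlapped as well. Cavin1 (9.13 ± 0.57) and Cavin2 (4.18 ± 1.25) were the least abundant, and neither overlapped its neighbour in this order. In CKO, Cavin3 spread from 45.1 to 135 CPM per kb and overlapped Cav1 (55.9 ± 12.4), which in turn overlapped Ehd2 (49.8 ± 4.64). Cav2 (21.5 ± 1.75) stood apart from the genes above and below it. Cavin2 (12.2 ± 5.98), Pacsin2 (11.8 ± 1.28) and Cavin1 (11.4 ± 2.22) overlapped at the lower end. Cavin3 made up 42.6% to 49.0% of the members' summed level per kb in WT, and 19.7%, 49.8% and 28.5% in CKO 1, 2 and 3.

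**Figure D3:**
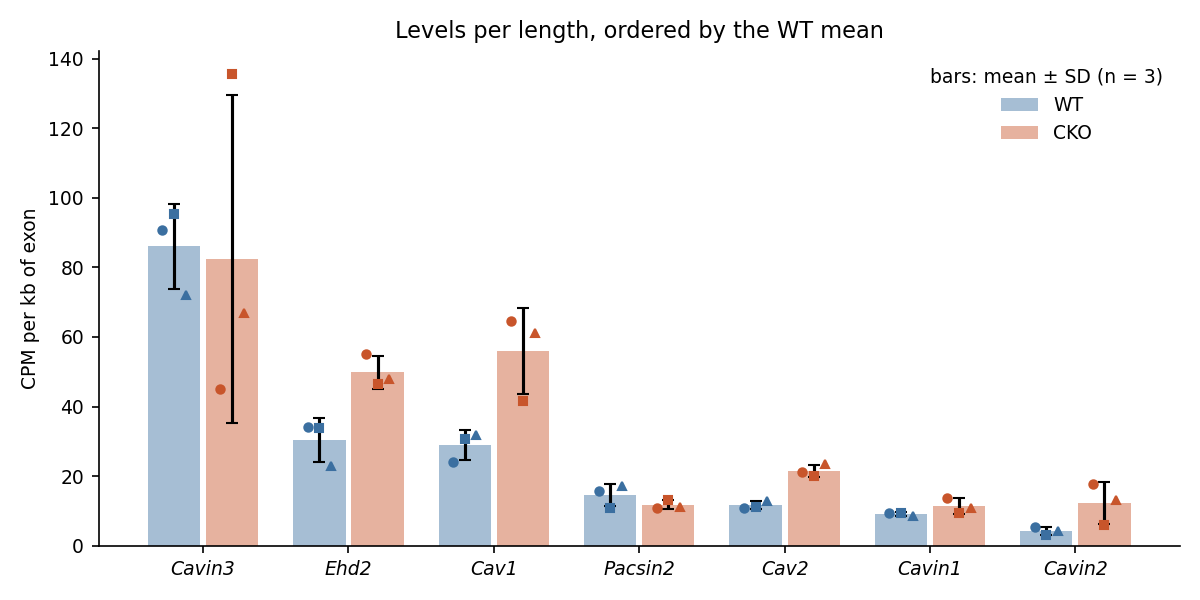
Level of each member in CPM per kb of exon, ordered by the WT mean, with WT in blue and CKO in orange. Bars are means with SD (n = 3), and circles, squares and triangles are libraries 1, 2 and 3. Cavin3 has the highest mean in both genotypes and spreads most in CKO, where CKO 2 reaches 135 CPM per kb.

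The caveola-associated list held 26 genes: paralogs of the members, dynamins, flotillins, kinases that phosphorylate caveolin, receptors found in caveolae, and proteins that tie caveolae to actin or remove caveolin. Of these, 25 were in the table and 23 were tested. With limma 0 of the 23 passed the adjusted threshold in either direction. An unadjusted p under 0.05 was reached by 2 higher and 3 lower genes of the 23, while 11.2% and 10.1% of all genes did so. edgeR and DESeq2 each gave an adjusted p to 17 of the genes and called 0, with 6 and 3 at an unadjusted p under 0.05. The log2 fold change was above 0 in 12 and below 0 in 11, with a median of 0.25 against 0.013 over all genes. CKO lay above WT without overlap in 3 genes and below in 5, against 14.5% and 13.2% of all genes tested.

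Among the EHD ATPases, Ehd3 had a log2 fold change near that of Ehd2. It measured 40.6 (WT 1), 44.3 (WT 2) and 29.6 CPM (WT 3), and 68.8 (CKO 1), 58.5 (CKO 2) and 74.5 CPM (CKO 3), without overlap (log2 fold change 0.81, standard error 0.22, adjusted p = 0.0569 by limma). Ehd3 acts in traffic from endosomes. Without CKO 2, Ehd3 passed the threshold (0.91, adjusted p = 0.0253 by limma). Ehd1, another endosomal paralog, had a log2 fold change of 0.25 (adjusted p = 0.525 by limma) and Ehd4 of 0.44 (adjusted p = 0.438 by limma), both with overlapping libraries. Of the PACSIN paralogs, Pacsin3 had a log2 fold change of -0.41 (adjusted p = 0.457 by limma) and ranged from 36.4 to 97.1 CPM. Pacsin1, the neuronal paralog, had 1 read over the 6 libraries together.

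The families also have members known mainly from muscle. Cav3, the caveolin of muscle fibres, had 16 to 20 reads in WT and 6 to 11 in CKO. In WT 1, 2 and 3 it was at 13.0, 15.0 and 13.5 CPM. The skeletal muscle markers read below summed to 74.7, 51.8 and 220 CPM in these libraries. Which cells the Cav3 reads came from was not tested. Every CKO library lay below every WT library, the opposite of Cav1 and Cav2 (log2 fold change -0.93, standard error 0.32, adjusted p = 0.120 by limma). Cavin4, the cavin of muscle, had 0 to 8 reads in a library and overlapped between genotypes. Its log2 fold change of 0.46 (adjusted p = 0.745 by limma) turned below 0 without WT 2 or without CKO 2.

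Other types of cell carry caveolae, and markers of several were read beside the members. Of 14 endothelial markers listed, 12 were in the table, and Kdr and Sox18 had no row. Of the 12 endothelial markers, 8 were at or below 3 reads in every library, among them Pecam1, Cdh5 and Tek, and none was called. Their sum was 34.8 to 41.4 CPM in WT and 42.6 to 78.7 CPM in CKO. Eng had the highest mean, with 15.8 to 22.5 CPM in the WT and 30.3 to 54.9 CPM in the CKO libraries. CKO 2 held the highest endothelial sum, whereas it was the lowest CKO library for Cav1 and Cav2. Plvap, which builds the diaphragm of endothelial caveolae, had 2 to 9 reads in a library and Nos3, the endothelial nitric oxide synthase, at most 2. The 7 adipocyte markers summed to 122 to 401 CPM in WT and to 477, 66.4 and 471 CPM in CKO 1, 2 and 3. Their most abundant gene was Fabp4, and Cidec and Lep were at or below 3 reads in every library. None of the adipocyte markers was called. As for Cav1 and Cavin2, CKO 2 was lowest among the CKO libraries, but WT 3 at 401 CPM was within the CKO range. Their part in the members' values was not tested.

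The 8 markers of smooth muscle and pericytes summed to 184 to 332 CPM in WT and 214 to 293 CPM in CKO, and none was called. Tagln had the highest mean over all libraries, but Cspg4 was above it in every WT library and had a log2 fold change of -1.52 (adjusted p = 0.0501 by limma). The 13 skeletal muscle markers summed to 51.8 to 220 CPM in WT and 113 to 297 CPM in CKO. Myog had the highest mean, but only through 179 CPM in CKO 2, and in the other libraries it was at 4.50 to 34.6 CPM. None was called, and Myh3, Myh8 and Ttn were at or below 3 reads in every library. The 8 fibroblast and perichondrium markers, led by Col3a1, summed to 3288 to 5325 CPM in WT and 1266 to 2549 CPM in CKO. None of these 8 had a log2 fold change above 0, and 1 was called lower. The 8 osteoblast markers summed to 906 to 1437 CPM in WT and 552 to 1460 CPM in CKO. Col1a2 had the highest mean and was the 1 gene called, lower in CKO, while 5 of the 7 tested had a log2 fold change above 0. Among these, Ibsp was at 82.5 to 129 CPM in WT and at 708, 83.0 and 808 CPM in CKO 1, 2 and 3. As for Cav1, the lowest of the CKO libraries was CKO 2.

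Besides the endothelial list, the summed lists that lay higher in every CKO library were those of keratinocytes, macrophages and hypertrophic chondrocytes. Without the gene of the highest mean, the sums overlapped for endothelium (without Eng) and for hypertrophic chondrocytes (without Spp1). They still separated the genotypes for keratinocytes and macrophages, but still held Sbsn and Cd68, which were called higher. Sbsn was at most 3.38 CPM in the WT and at 16.6 to 83.9 CPM in the CKO libraries. Cd68 was at most 11.8 CPM in the WT and at 46.9 to 76.3 CPM in the CKO libraries. Apart from Perp, Sbsn and Cd68, every gene of these lists in the table overlapped between the genotypes. Separation of the keratinocyte and macrophage lists beyond these genes was not tested. The 7 keratinocyte markers in the table summed to 32.1 to 62.3 CPM in WT and 207 to 224 CPM in CKO, and 2 were called higher, Sbsn and Perp. Perp had the highest mean, with 8.45 to 18.8 CPM in the WT and 97.0 to 145 CPM in the CKO libraries. Krt10 was above Perp in every WT library and overlapped between the genotypes, as did Trp63 (log2 fold change -0.23). Krt1, Krt15 and Krtdap were at or below 3 reads in every library, and Krt5, Krt14 and Dsg3 had no row. The 8 macrophage and osteoclast markers summed to 102 to 120 CPM in WT and 182 to 198 CPM in CKO, with 1 called higher, Cd68, and C1qa and Mrc1 at or below 3 reads in every library. Ctsk was their most abundant gene, with 81.9 to 95.3 CPM in the WT and 88.0 to 108 CPM in the CKO libraries. Hypertrophic markers summed to 1432 to 4555 CPM in WT and 12344 to 14467 CPM in CKO. Without Spp1 they summed to 394 to 786 CPM in WT and 467 to 2422 CPM in CKO. Spp1 was the 1 gene called of the 5 tested, 3 of the 5 had a log2 fold change above 0, and Ihh was at or below 3 reads in every library. Of those tested, the log2 fold change was above 0 in 7 of 7 macrophage and osteoclast and 3 of 4 keratinocyte markers. Counts above 0 were 7 of 8 for smooth muscle and pericytes and 6 of 10 for skeletal muscle. They were 2 of 4 for endothelium and 2 of 5 for adipocytes, against 6180 of all 12155 genes tested. The erythroid markers in the table summed to at most 28.9 CPM, in CKO 2, and 2 of the 2 tested were above 0. The part of these cells in the members' values was not tested.

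The profile of each member across the libraries, log2(CPM + 1) centred on the gene's own mean, was compared with those of genes averaging 10 CPM or more by the root mean square distance over the 6 libraries. The points share libraries and depth, and the distance is a description. Closest to Cav1 among 6826 genes were Ctsl (0.072 on the log2 scale), which encodes the lysosomal protease cathepsin L, Alas1 (0.090), the first enzyme of haem synthesis, and Rbpj (0.11), the DNA-binding factor of Notch signaling. All 3 were highest in CKO 1 and nearest to WT in CKO 2, as Cav1 was. Closest to Cav2 were Lgals1 (0.058), which encodes galectin 1, Smn1 (0.079), a factor of snRNP assembly, and Sf3a1 (0.081), a subunit of the U2 snRNP. Lgals1 also separated the genotypes, with 1772 to 2259 CPM in the WT and 3571 to 3800 CPM in the CKO libraries. Cav2 took place 48 in the order for Cav1, and Cav1 place 125 in the order for Cav2. The other members were farther from Cav1, Ehd2 at place 552, Cavin1 at 850, Cavin2 at 2137, Pacsin2 at 4610 and Cavin3 at 5771. For Cav1 and Cavin3 the libraries CKO 1 and CKO 2 stood in opposite order, with centred values of 0.70 and 0.072 for Cav1 and of -0.81 and 0.76 for Cavin3.

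**Figure D4:**
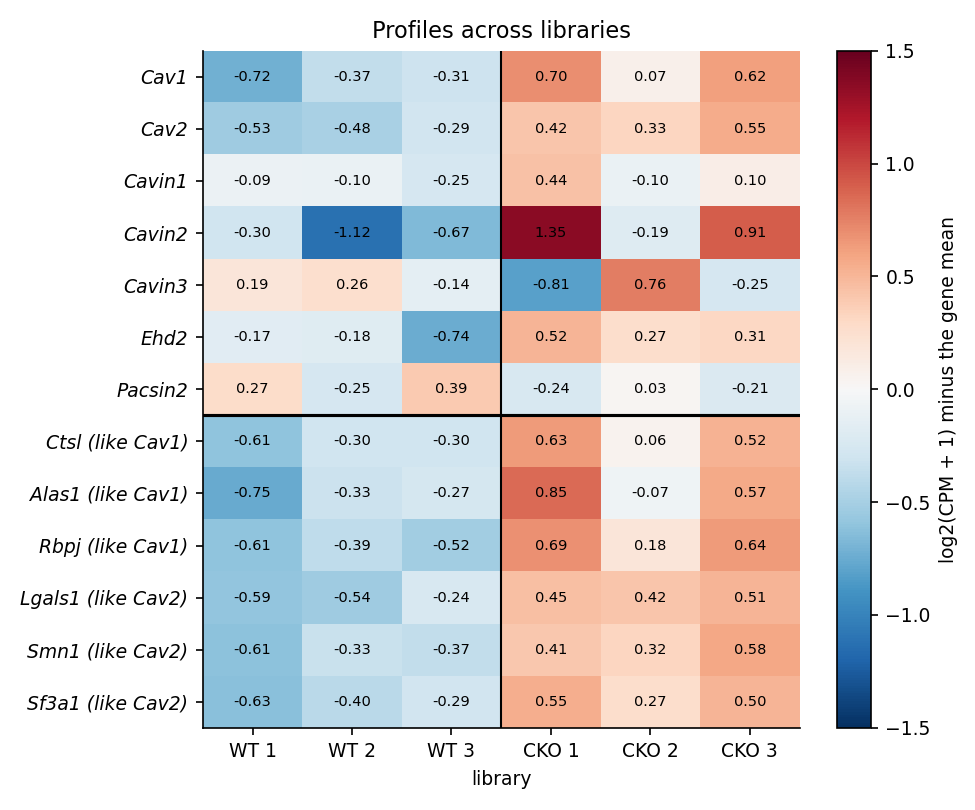
Heat map of log2(CPM + 1) minus each gene's mean over the 6 libraries (columns) for the members (top) and for the 3 genes closest to Cav1 and to Cav2 (bottom). Red is above and blue below the gene's mean. The caveolins are blue in WT and red in CKO, and Cavin3 goes from -0.81 in CKO 1 to 0.76 in CKO 2.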

How the data were processed

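The labels name growth plate chondrocytes, and total RNA was extracted with TRIzol and made into libraries with a stranded mRNA kit. The submitters' processing notes name cutadapt 2.5, HISAT2 and featureCounts 1.6.3. The genome build, annotation and strand setting are not given in the sources used here. The authors deposited CPM per gene and library, each library summing to 1000000. All values (100%) were whole multiples of 1 read within a tolerance of 0.01 reads, so reads were recovered. The floor of 3 reads covers counting error only, and limma's intervals cover the spread between libraries.

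limma (version 3.58.1, R 4.3.3, mean-variance trend, no covariate) was fitted to log2(CPM + 1), which understates changes of low genes, with Benjamini-Hochberg adjustment over 12155 genes. edgeR's quasi-likelihood test (4.0.16) and DESeq2's Wald test (1.42.0) on the recovered reads were alternatives, beside a pseudocount of 0.1, no filter, TMM scaling, a replicate block and each library left out. edgeR's own filter kept 7704 genes. In counts simulated for this comparison with 200 genes changed 4-fold, limma recovered 70.4% of the 196 tested, with 3 false calls among 12130 genes. edgeR recovered 97.1% of the 136 it tested and DESeq2 58.5% of 200. The simulation gave all genes the same variability and let no library stand apart. Its change was larger than that of any member, at most 2.93 times for Cavin2. These shares therefore do not carry over to the members. Exon lengths and coordinates came from GENCODE M21 (GRCm38), where 15212 of 15217 Ensembl identifiers were found. Promoters came from RefSeq, and copies were searched with BLAST 2.17.0.

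The members, lists and motifs were chosen with earlier results of these data known. The genes named are the members, their paralogs in the caveola-associated list and genes of that list past the threshold, the nearest genes to the Cav1-Cav2 pair, the 3 closest profiles to each caveolin, Hnrnpk, and for marker lists the most abundant gene by mean CPM and those at the floor. Plvap and Nos3, Cspg4, Ibsp, Krt10, Trp63, the keratinocyte and endothelial markers without a row and the genes called in marker lists were named after the results were seen. Nothing in the labels ties libraries to separate embryos, so p-values measure the spread between these libraries. Each library was counted as 1 replicate, since even CKO 1 and CKO 3, the closest pair, differed by 1.27 times the sampling variance. This separates them from identical files, not from repeat libraries of the same RNA.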

Additional observations from a re-analysis of the deposited data

How the results depend on the processing

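Direction held for Cav1, Cav2, Cavin1, Cavin2, Ehd2 and Pacsin2 under all alternatives run. The number of members called higher, 2, was 1 with the replicate block (Cavin2 called, both caveolins lost). With a library left out it ranged from 0 (without WT 1, WT 2, CKO 1 or CKO 3) to 4 (without CKO 2, when Cavin2 and Ehd2 were also called). Counts of members include Cav2, whose rise was part of the choice, and are descriptions. Among all genes, 387 were higher and 316 lower. These were 225 and 160 with the block, and 123 to 692 higher and 79 to 606 lower with a library left out. Of the caveola-associated genes, 0 to 2 were higher with a library left out, the 2 being Ehd3 and Flot1 without CKO 2. Leaving out WT 3 and CKO 2 together was chosen after seeing the data, and it removes the libraries farthest from their genotype and so narrows the spread. It gave 1312 higher and 1098 lower genes, 4 members higher and 1 lower (Cavin3, log2 fold change -0.75), and 4 caveola-associated genes higher and 1 lower. Signs turned for Cavin3 without CKO 1 (0.15, range with a library left out -0.63 to 0.15), for Cavin4 without WT 2 (-0.23) or CKO 2 (-0.015, range -0.23 to 0.84), for Src without CKO 2 (0.059, range -0.60 to 0.059) and for Insr without CKO 3 (0.089, range -0.67 to 0.089). The cause was not tested, and each of these fits also has fewer libraries.

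Same-numbered libraries did not deviate together: the correlations over 12155 genes were 0.038, -0.13 and -0.10, so no pairing by number was visible. The paper states that littermates were compared. With 3 libraries per genotype these correlations cannot exclude a pairing by litter. The block left Cav1 at 0.93 (limma's adjusted p = 0.0681) and called Cavin2 (adjusted p = 0.0469). Depth limits the genes with few reads, such as Tes, Met and Cavin4, and among the members Cavin2 has the fewest.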
